A study of Mus musculus with 9 samples.

Results

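The heparan sulfate (HS) 3-O-sulfotransferase family of the mouse comprised 7 genes, *Hs3st1*, *Hs3st2*, *Hs3st3a1*, *Hs3st3b1*, *Hs3st4*, *Hs3st5* and *Hs3st6*, which were taken by name from the 48733 rows of the deposited count table. They were read in RNAseq libraries of whole submandibular glands (SMGs) from 4 wildtype (WT) male mice and 5 male double knockout (DKO) mice that lack *Hs3st3a1* and *Hs3st3b1*. Reads were present for 5 of the 7 members. The authors' filtered table kept 3 of them, and the other 4 count as not detected there. Only 2 members, *Hs3st1* and *Hs3st3b1*, had enough counts for the test across genes, which covered 13842 rows.

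All mice were adults, the WT mice were littermates of the DKO mice, and the single knockout strains of the study were on a C57BL/6 background. The *Hs3st3b1* allele was made from repository ES cells and carried a LacZ cassette, and exon 1 of *Hs3st3a1* was then cut with zinc finger nucleases in *Hs3st3b1* heterozygous embryos, which gave several founder lines with frameshift deletions. The line that the sequenced glands came from is not given in the sources used here. Both deletions are constitutive, so every cell type of the gland carried them. Each library came from 1 mouse, and the kit did not keep the strand of the RNA.

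HS is a sulfated sugar chain attached to core proteins at the cell surface and in the basement membrane, where it binds growth factors. The chain is built on a linkage sugar, extended by exostosins and then modified in order by N-sulfation, epimerisation, 2-O-sulfation, 6-O-sulfation and 3-O-sulfation. The last step is the rarest and is carried out by this family. The enzyme HS3ST1 is known for making the antithrombin binding site of heparin, whereas the HS3ST3 enzymes make a different type of site. In SMGs, *Hs3st3a1* and *Hs3st3b1* are known to be enriched in myoepithelial cells (MECs), the contractile cells that wrap the secretory acini.

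The coding sequences were compared first, because reads that match 2 genes equally well cannot be assigned to one of them by sequence. The deleted genes lie on chromosome 11 in GENCODE M21 (build GRCm38), where the minus strand gene *Hs3st3b1* (ENSMUSG00000070407) spans chr11:63885792-63922290 and the plus strand gene *Hs3st3a1* (ENSMUSG00000047759) spans chr11:64435332-64522841. Of their 1119 aligned coding bases, 979 were identical (87.5%). The likeness was uneven. Coding exon 1 shared 74.0% of 503 aligned bases, while coding exon 2 shared 98.5% of 616. Within exon 2 an unbroken run of 401 bases was the same in both genes. Among the other 20 pairs of members the identity of aligned coding bases lay between 57.3% and 72.7%, and no pair shared a window of 50 bases. For the deleted pair, 416 windows of 50 bases occurred in both transcripts, which was 10.7% of the windows of *Hs3st3a1* and 8.56% of those of *Hs3st3b1*. How reads from these windows were counted is not given in the sources used here.

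To show this, 120 coding bases from the middle of the shared run in exon 2 are given 5′ to 3′ with the best ungapped match in the other members that had reads in WT. The letters come from the GENCODE M21 transcripts, and capitals mark bases that differ from *Hs3st3b1*.
Hs3st3b1 (chr11:63889374-63889493, minus strand): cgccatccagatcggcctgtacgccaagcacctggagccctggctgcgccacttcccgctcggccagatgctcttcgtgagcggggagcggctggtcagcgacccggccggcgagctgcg
Hs3st3a1 (chr11:64520450-64520569, plus strand): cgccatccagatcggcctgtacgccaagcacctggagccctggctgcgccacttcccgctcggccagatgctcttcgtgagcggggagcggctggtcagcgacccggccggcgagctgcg
Hs3st6 (chr17:24758210-24758329, plus strand): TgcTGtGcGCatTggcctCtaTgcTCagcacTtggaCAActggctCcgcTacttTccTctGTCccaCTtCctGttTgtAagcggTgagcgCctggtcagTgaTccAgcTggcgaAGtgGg
Hs3st1 (chr5:39614601-39614720, minus strand): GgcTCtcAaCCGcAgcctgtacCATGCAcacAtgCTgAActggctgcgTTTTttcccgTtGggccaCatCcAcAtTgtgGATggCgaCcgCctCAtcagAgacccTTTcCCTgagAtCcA
*Hs3st3a1* had 0 differences from *Hs3st3b1* in this window, *Hs3st6* had 37 and *Hs3st1* had 48. The last 120 coding bases of exon 1 are shown for the deleted pair because there the genes can be told apart.
Hs3st3b1 (chr11:63921334-63921453, minus strand): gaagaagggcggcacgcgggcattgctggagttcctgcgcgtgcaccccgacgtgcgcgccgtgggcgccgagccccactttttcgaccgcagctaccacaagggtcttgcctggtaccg
Hs3st3a1 (chr11:64436507-64436626, plus strand): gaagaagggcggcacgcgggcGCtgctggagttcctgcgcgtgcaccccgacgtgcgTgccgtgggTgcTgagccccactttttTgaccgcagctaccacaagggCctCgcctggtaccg
Here *Hs3st3a1* differed at 8 of 120 bases. Exon 1 of *Hs3st3a1* also overlaps another annotated gene on the opposite strand, *F930015N05Rik* (chr11:64435156-64436653), which covers all 1295 bases of that exon. That gene had 1 read in WT replicate 3 and 0 in the other 8 libraries. Since the libraries were unstranded, reads of the overlap cannot be given to one gene by strand.

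Total counts ranged from 17053747 to 37870519 per library. The 20 most abundant genes took 52.9% to 58.7% of the counts in WT and 59.4% to 70.3% in DKO, so the scaling between libraries was of consequence for genes at the level of this family. Levels are given as CPM, a gene's counts scaled by library size, after TMM normalization, which sets the libraries on the level of most genes. Acinar markers were abundant in every library, with 10 genes that summed to 173095 to 259551 CPM in WT and 271704 to 453558 CPM in DKO. *Mucl2*, *Prol1* and *Pip* made up most of this sum, with WT means of 145769, 45921 and 23225 CPM. The 10 granular duct markers summed to 29713 to 68995 CPM in WT and 4541 to 23282 CPM in DKO. The 10 MEC markers summed to 644 to 1029 CPM in WT and 257 to 584 CPM in DKO.

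The deleted genes were read first. *Hs3st3a1* gave 7, 3, 14 and 9 reads in WT replicates 1 to 4 and none (0) in any of the 5 DKO libraries. The groups did not overlap, with the WT values low but above 0 in every gland. The WT level was 0.281 ± 0.116 CPM (SD, n = 4). Against a floor of 3 counts over the DKO group, which covers counting error only, the level was at least 11.2-fold lower in DKO. The exact two-sided permutation test over all assignments of genotype to the 9 libraries gave p = 0.00794, the smallest value that this design allows. *Hs3st3a1* did not pass the filter on low counts, so it had no fitted fold change.

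Reads of *Hs3st3b1* fell in DKO but were still present. By qPCR, the paper reports no expression of either deleted gene in adult DKO glands. The part of the gene that its qPCR measured is not given in the sources used here. The WT libraries held 67 to 216 reads of *Hs3st3b1*, and DKO replicates 1 to 5 held 19, 45, 22, 30 and 7. The levels were 2.99, 4.82, 4.77 and 5.37 CPM in WT and 0.557, 1.85, 1.01, 1.19 and 0.508 CPM in DKO. All DKO libraries lay below all WT libraries, with WT replicate 1 the lowest of its group and DKO replicate 2 the highest of its own. The gene averaged 4.49 ± 1.03 CPM over the 4 WT glands and 1.02 ± 0.547 CPM over the 5 DKO glands (SD). The log2 fold change was -2.11 with a standard error of 0.34 and a 95% interval of -2.85 to -1.38 (Benjamini-Hochberg adjusted p = 0.0478 by the quasi-likelihood test of edgeR). DESeq2's Wald test gave an adjusted p of 1.17e-06 on the same counts. The call was lost with upper quartile factors (edgeR adjusted p = 0.0514), with TMM factors set without the 20 most abundant genes (0.0508), with limma-voom (0.0515) and under the replicate block (0.0766).

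*Hs3st3b1* was thus the 1 member called of the 2 tested, where 0.629% of all genes tested were called in either direction and 0.462% were called lower. DESeq2 called it as well, as it did 4.45% of the genes. Values that did not overlap, with DKO lower, were seen in 3.51% of genes. By its unadjusted p of 4.48e-05 in the edgeR test the gene ranked 11 of 13842. *Fgf9* and *Trim16*, read below, shared its edgeR adjusted p of 0.0478 at an unadjusted p of 1.33e-04 each. An adjusted p thus depends on the other genes as well as on the gene itself. The adjusted value of *Hs3st3b1* lay close to the threshold of 0.05. It passed that threshold in 2 of the 9 fits that left out 1 library, those lacking WT replicate 2 or DKO replicate 4. When WT replicate 1, 3 or 4 was left out, or DKO replicate 1, 2, 3 or 5, the adjusted p lay between 0.0522 and 0.198, while the log2 fold change stayed between -2.44 and -1.93.

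**Figure D1:**
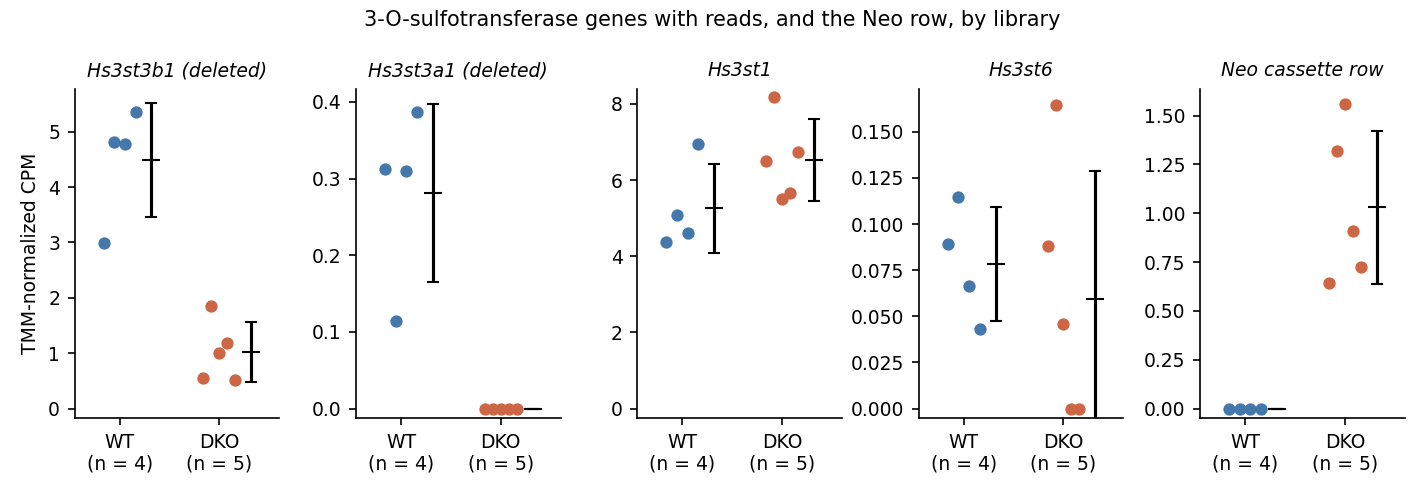
TMM-normalized CPM of *Hs3st3b1*, *Hs3st3a1*, *Hs3st1*, *Hs3st6* and the Neo cassette row in each library, with 1 point per mouse and the mean ± SD beside each group (4 WT, 5 DKO). Each panel has its own linear axis, and the lower bar of *Hs3st6* in DKO runs below the axis; the groups are apart for both deleted genes and the Neo row, and overlap for *Hs3st1* and *Hs3st6*.

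The residual level of *Hs3st3b1* differed between DKO mice. Relative to the WT mean it was 12.4%, 41.3%, 22.5%, 26.4% and 11.3% in DKO replicates 1 to 5. DKO replicate 2 retained the most and DKO replicates 1 and 5 the least. The fitted fold put the DKO level at 23.1% of WT, with a 95% interval of 13.9% to 38.4%. The deposited values are totals per gene, so the exon that the residual reads came from cannot be read from them. In exon 2 the pair shares the run shown above, and its part in the residual count was not tested.

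Rows for transgenes in the count table gave a further check of the labels. A row for the neomycin resistance cassette (Neo) gave 0 reads in all 4 WT glands and 22, 32, 34, 23 and 10 in DKO replicates 1 to 5. Its mean of 1.03 ± 0.393 CPM in DKO (SD, n = 5) was 40.2-fold above a floor of 3 counts over the WT group. Every DKO library carried Neo reads and no WT library did. The LacZ row gave 0, 0, 1 and 1 reads for WT and 3, 2, 5, 2 and 0 for DKO. These groups overlapped, as DKO replicate 5 had 0, and the exact two-sided permutation test on CPM gave p = 0.0873. A row named tg_beta-lac gave 3, 5, 3 and 2 reads for WT and 6, 1, 2, 3 and 0 for DKO, which also overlapped (exact permutation p = 0.437).

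MEC markers also had lower values in DKO. Of the 9 MEC markers tested, all 9 had a log2 fold change below 0, 3 were called lower by edgeR (*Myh11*, *Mylk* and *Tagln*) and 7 were called by DESeq2, beside 0.462% of all genes called lower by edgeR and 4.45% called by DESeq2. Without WT replicate 1, 3 or 4, without DKO replicate 2 or 5, and under the replicate block, edgeR called 0 genes of any kind, these 3 included, while 1348 to 2024 genes had an unadjusted p under 0.05. In bulk glands, fewer cells of a type and less RNA per cell cannot be told apart. Log2 fold changes of the 9 ran from -1.47 for *Tagln* to -0.12 for *Trp63*, with a median of -1.06. *Oxtr*, the marker that was not tested, had at most 4 counts in a library. The mean log2 CPM of all 10 markers was 4.74 ± 0.22 in WT and 3.88 ± 0.33 in DKO, a difference of -0.86. *Hs3st3b1* stood at 2.29 ± 0.33 and 0.53 ± 0.51 on the same log2(CPM + 0.5) scale, a difference of -1.76. The part of the marker difference in the *Hs3st3b1* value was not tested.

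The level of *Hs3st3b1* minus the mean of the markers within each library was -3.13, -2.03, -2.46 and -2.16 log2 units in WT and -3.77, -2.74, -2.94, -3.63 and -3.66 in DKO. The groups overlapped, since WT replicate 1 lay among the DKO values. This relative level averaged -2.45 ± 0.49 over the 4 WT glands and -3.35 ± 0.47 over the 5 DKO glands (SD). The difference between these means was -0.90. That value depends on the markers averaged. The paper places *Krt14* in both MECs and basal ducts, and lists *Krt5* among duct genes. *Krt14*, *Krt5*, *Krt17* and *Trp63* had log2 fold changes of -0.70, -0.53, -0.88 and -0.12. The contractile genes *Acta2*, *Cnn1*, *Myh11*, *Mylk* and *Tagln* had -1.07, -1.35, -1.06, -1.33 and -1.47. A mean of the contractile genes alone was not taken. With all 10 markers, the difference was -1.27 with a pseudocount of 0.1 CPM and -0.62 with 1 CPM.

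Among the members that were not deleted, *Hs3st1* (ENSMUSG00000051022, chr5:39613935-39755475, minus strand) held nearly all reads. WT replicates 1 to 4 gave 98, 133, 209 and 162 reads, and DKO replicates 1 to 5 gave 222, 199, 120, 143 and 93. The normalized values were 4.37, 5.09, 4.62 and 6.95 CPM in WT and 6.50, 8.19, 5.50, 5.65 and 6.75 CPM in DKO. WT replicate 4 lay above every DKO library but replicate 2, so the groups overlapped.

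*Hs3st1* averaged 5.26 ± 1.17 CPM over the 4 WT glands and 6.52 ± 1.07 CPM over the 5 DKO glands (SD). Its log2 fold change of 0.31 (standard error 0.17, 95% interval -0.07 to 0.69) did not pass the test (Benjamini-Hochberg adjusted p = 0.461 by the quasi-likelihood test of edgeR, 0.467 by DESeq2). As a ratio, DKO over WT was 1.24, with an interval of 0.953 to 1.62. A rise above 1.62-fold thus lay outside the interval, and so did a fall below 0.953-fold. The estimate depended on the scaling. With raw library sizes and no TMM factors, the log2 fold change was 0.02 (adjusted p = 0.953), a setting that moved the median of all genes by -0.29. Without WT replicate 4 it was 0.47.

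*Hs3st6* (ENSMUSG00000039628, chr17:24752988-24758684, plus strand) was near the limit of detection. WT replicates 1 to 4 gave 2, 3, 3 and 1 reads, and DKO replicates 1 to 5 gave 3, 4, 1, 0 and 0. These groups overlapped, and no library had more than 4 counts. Summed over the groups there were 9 counts in WT and 8 in DKO, a ratio of 0.872 with a 95% exact interval of 0.293 to 2.55 that covers counting error only. A change within this range was not detectable at this depth.

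The remaining members were at or close to 0. *Hs3st2* (chr7:121391859-121501770) had 1 count in DKO replicate 3 and 0 in the other 8 libraries. *Hs3st4* (chr7:123982869-124398989) and *Hs3st5* (chr10:36506814-36834397) had 0 counts in all 9 libraries. A count of 0 allows up to 3 counts per group, which is 0.0256 CPM over the WT libraries and, for *Hs3st4* and *Hs3st5*, 0.0251 CPM over the DKO libraries. The 1 count of *Hs3st2* allows up to 0.0467 CPM over the DKO libraries (upper bound of the 95% exact interval, counting error only). *Hs3st2* and *Hs3st4* share 276 and 130 exon bases with annotated antisense genes, which had 0 counts as well.

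Levels between genes were compared per kilobase of exon. In WT the mean was 2.36 ± 0.524 CPM per kb for *Hs3st1*, 0.914 ± 0.210 for *Hs3st3b1*, 0.0713 ± 0.0295 for *Hs3st3a1* and 0.0577 ± 0.0227 for *Hs3st6* (SD, n = 4). *Hs3st1* was above *Hs3st3b1* in every WT library, with a lowest value of 1.96 against a highest of 1.09 CPM per kb. *Hs3st3b1* was likewise apart from *Hs3st3a1*, whereas *Hs3st3a1* and *Hs3st6* overlapped. The length of *Hs3st3a1* includes the bases overlapped by *F930015N05Rik* and the run shared with *Hs3st3b1*. How reads there were counted is not given, so its level per kb may be understated. In DKO, *Hs3st1* stood at 2.92 ± 0.482, *Hs3st3b1* at 0.208 ± 0.111 and *Hs3st6* at 0.0439 ± 0.0509 CPM per kb (SD, n = 5). There the lowest *Hs3st3b1* value, 0.103, was below the highest *Hs3st6* value, 0.121.

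The composition of the family's reads differed between the groups and is given as a description with no test. These shares count reads and were not divided by exon length, which is 4911 bases for *Hs3st3b1* and 2230 bases for *Hs3st1*. The longer gene thus weighs more in them. The deleted pair made up 42.5%, 48.7%, 52.0% and 45.1% of the family's counts in WT replicates 1 to 4 and 7.79%, 18.1%, 15.3%, 17.3% and 7.0% in DKO replicates 1 to 5. The groups did not overlap. The share of *Hs3st1* averaged 52.1% ± 4.11 over the 4 WT glands and 86.0% ± 5.60 over the 5 DKO glands (SD). Within the pair, *Hs3st3a1* provided 2.33% to 9.46% of the counts in WT.

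The family sum was 7.77, 10.1, 9.77 and 12.7 CPM in WT and 7.15, 10.2, 6.60, 6.84 and 7.25 CPM in DKO. The groups overlapped, with DKO replicate 2 above 3 of the 4 WT libraries. It averaged 10.1 ± 2.05 CPM over the 4 WT glands and 7.61 ± 1.47 CPM over the 5 DKO glands (SD), a ratio of 0.753. Like the shares, the sum was not divided by exon length, so this is a ratio of reads and not of transcripts. Per kb of exon, *Hs3st1* averaged 2.36 CPM in WT and 2.92 in DKO, against 0.914 and 0.208 for *Hs3st3b1*. The deleted pair was lower by a mean of 3.75 CPM in DKO, from 4.77 ± 1.04 to 1.02 ± 0.547. The other 5 members together stood at 5.34 ± 1.15 CPM in WT and 6.59 ± 1.12 CPM in DKO, a difference of 1.25 CPM between groups that overlapped. On raw library sizes this difference was 0.0522 CPM and the ratio of the family sums was 0.615.

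**Figure D2:**
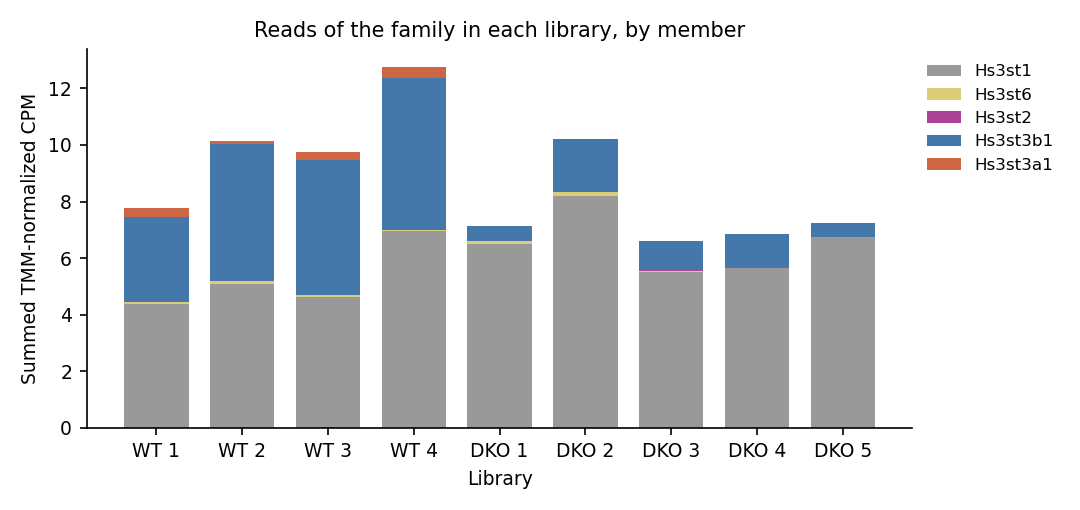
Summed TMM-normalized CPM of the family in each of the 9 libraries, stacked by member on a linear axis from 0 and not divided by exon length. WT bars reach 7.77 to 12.7 CPM with the deleted pair as 42.5% to 52.0% of the counts, and DKO bars reach 6.60 to 10.2 CPM with *Hs3st1* as most of each bar.

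The other genes of the HS pathway were read from 8 lists of 39 genes ordered by step. Of these, 32 were tested and 0 were called in either direction by edgeR, and DESeq2 also called 0. Over all genes tested, edgeR called 0.629% and DESeq2 4.45%, so 0 of 32 lies near the share of all genes. At an unadjusted p under 0.05 edgeR had 4 of them, namely *Fam20b*, *B3galt6*, *Ext1* and *Extl3*, where 14.5% of all genes reached that level. The median log2 fold change of the 32 was 0.06, beside 0.01 for all genes tested, with 22 above and 10 below 0.

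In the linkage step, which primes the chain, 6 of 7 genes were tested. *Fam20b*, the kinase that phosphorylates the linkage xylose, had a log2 fold change of 0.27 (95% interval 0.04 to 0.50, adjusted p = 0.255). That value was -0.026 on raw library sizes. *B3galt6*, a galactosyltransferase of the linkage, stood at -0.35 (-0.69 to -0.00, adjusted p = 0.341) and at -0.65 on raw library sizes. Neither passed the test.

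The chain polymerases held the lowest and the highest of the 32 values. *Ext1*, a subunit of the HS polymerase, was at 7.23 ± 1.76 CPM in WT and 4.68 ± 1.09 CPM in DKO, a log2 fold change of -0.62 (95% interval -1.07 to -0.18, adjusted p = 0.179). Its partner *Ext2* was at 0.01 (-0.27 to 0.29). *Extl3*, which starts the chain, was at 0.43 (0.07 to 0.79, adjusted p = 0.249), with all DKO libraries above all WT libraries. DKO replicate 3, at 18.7 CPM, lay well above the other DKO libraries, and the value was 0.27 without it and 0.11 on raw library sizes. Values apart in either direction were seen in 6% of all genes. *Extl1* was at 1.12, but with an interval of -0.04 to 2.28 and low means of 0.479 CPM in WT and 1.10 CPM in DKO.

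The other modifying enzymes, which act before or beside 3-O-sulfation, lay closer to 0. The N-sulfotransferases *Ndst1* and *Ndst2* were at 0.19 and 0.00, and *Ndst3* and *Ndst4* had at most 5 counts in a library. The epimerase *Glce* was at -0.14, the 2-O-sulfotransferase *Hs2st1* at 0.36 (95% interval -0.12 to 0.84) and the 6-O-sulfotransferase *Hs6st1* at 0.23 (-0.15 to 0.61). *Hs6st2* had at most 6 counts in a library and *Hs6st3* had 0.

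Sulfate for all these enzymes comes as PAPS, which is made by *Papss1* and *Papss2* and moved into the Golgi by *Slc35b2* and *Slc35b3*. These 4 genes and the 2 nucleotidases of the list had log2 fold changes from -0.20 to 0.24. The extracellular sulfatases *Sulf1* and *Sulf2* stood at -0.46 (95% interval -1.33 to 0.40) and -0.04. The 8 genes of lysosomal HS breakdown lay between -0.20 and 0.26, and 7 of them were above 0.

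**Figure D3:**
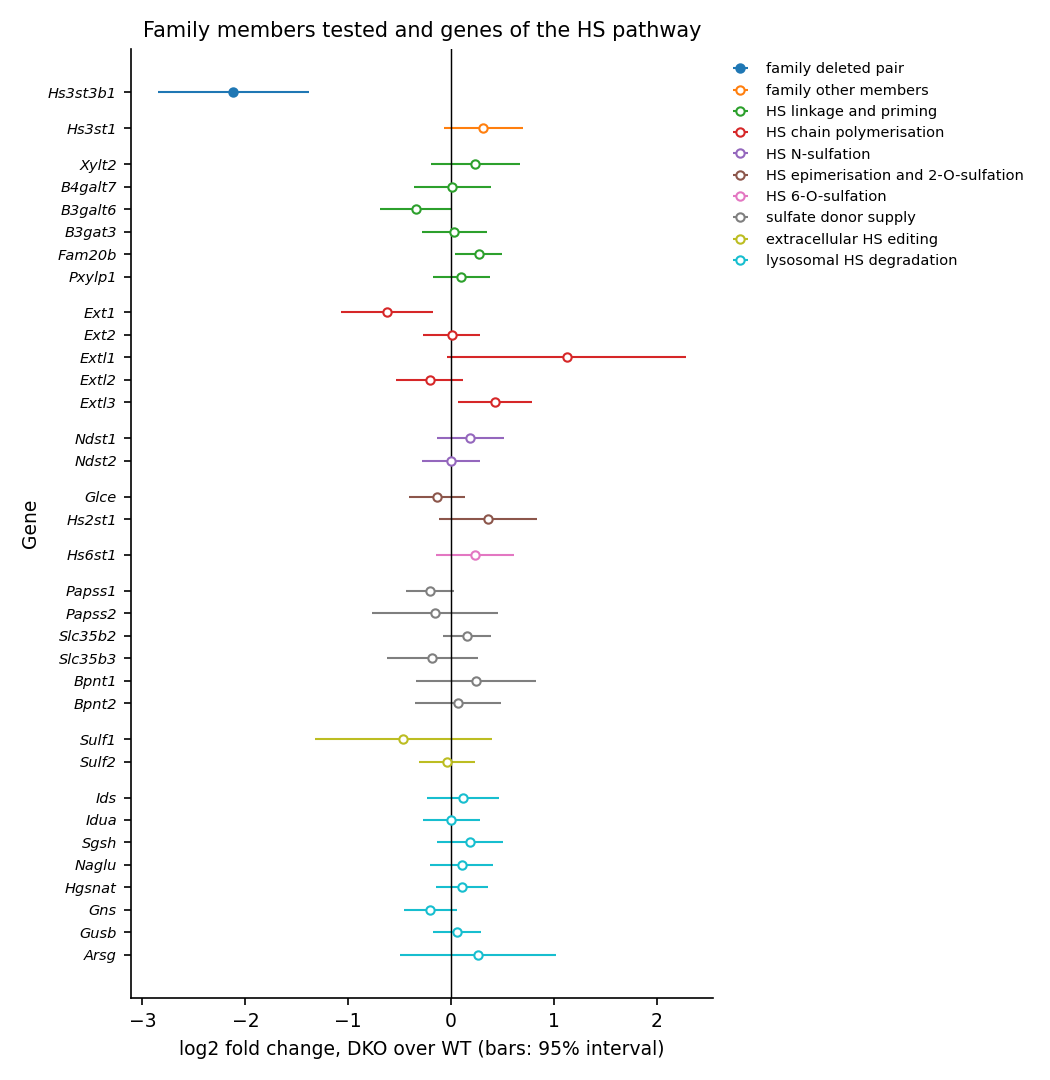
Log2 fold change (DKO over WT, edgeR) of the 2 family members and 32 HS pathway genes tested, colored by list, with bars for the 95% interval and filled points for an adjusted p under 0.05. The 1 filled point is *Hs3st3b1* at -2.11, and the pathway genes range from -0.62 to 1.12.

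Proteins known or proposed to bind 3-O-sulfated HS formed a list of 11 genes, of which 8 were tested. *Fgf9*, a growth factor that signals through FGF receptors, was the 1 gene called of these 8, and it was lower, beside 0.629% of all genes called and 0.462% called lower. It stood at 10.2, 6.0, 13.3 and 10.6 CPM in WT and at 3.66, 2.59, 2.47, 5.42 and 4.06 CPM in DKO. All DKO libraries lay below all WT libraries. The log2 fold change was -1.47 (standard error 0.26), and its adjusted p was 0.0478 (Benjamini-Hochberg) by the quasi-likelihood test of edgeR and 5.39e-05 by DESeq2. DESeq2 called 4.45% of all genes, and values apart with DKO lower were seen in 3.51%. The paper also lists *Fgf9* among its differentially expressed genes of the adult gland, with a difference by qPCR in male DKO glands. It reports *Fgf9* as reduced in DKO glands shortly after birth as well. The paper places *Fgf9* expression in MECs, whose markers were also lower in DKO. The part of that marker difference in the *Fgf9* value was not tested.

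The *Fgf9* call was present in 2 of the 9 fits with 1 library left out, without WT replicate 2 and without DKO replicate 4, with adjusted p up to 0.198 in the others. It was also lost in 5 of the 10 other alternatives, among them limma-voom (adjusted p = 0.0546 with limma) and the replicate block (adjusted p = 0.0766 with edgeR). *Fgfr1* and *Nrp1*, receptors that bind HS, were at -0.13 (95% interval -0.62 to 0.37) and -0.17 (-0.48 to 0.14). The antithrombin gene *Serpinc1* was at -0.39 (-1.28 to 0.51). The median of the 8 was -0.13.

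Chondroitin and dermatan sulfate, the other sulfated chains that start on the same linkage, were covered by 16 genes, of which 13 were tested and 0 were called by edgeR or DESeq2. Their median log2 fold change was -0.06, and 2 of the 13 reached an unadjusted p under 0.05, beside 14.5% of all genes. The share of all genes called was 0.629% by edgeR and 4.45% by DESeq2. *Chst13*, a chondroitin 4-O-sulfotransferase, was at -0.77 (95% interval -1.43 to -0.12, adjusted p = 0.257). *Chst7*, a chondroitin 6-O-sulfotransferase, was at 0.88 (0.03 to 1.74, adjusted p = 0.324), and at 0.55 on raw library sizes.

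Both deleted genes lie on 1 stretch of chromosome 11, with 513.0 kb between them, so the genes around them were examined. Of 63 annotated genes within 1.5 Mb of the pair, 18 were tested, 16 of them protein coding. *Cox10*, the tested protein-coding gene between the pair, had a log2 fold change of 0.25 (95% interval -0.09 to 0.58). *2810001G20Rik*, an antisense gene of the interval, was at 0.21 (-0.21 to 0.64).

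*Trim16*, a tripartite motif gene at chr11:62820231-62850808, was the 1 neighbor called. It stood at 40.6, 27.5, 49.4 and 33.4 CPM in WT and at 20.8, 15.1, 17.9, 23.5 and 19.4 CPM in DKO. The groups did not overlap. Its log2 fold change was -0.96 (standard error 0.17), and its adjusted p was 0.0478 (Benjamini-Hochberg) by the quasi-likelihood test of edgeR and 0.000130 by DESeq2. This was 1 of 18 genes, beside the 0.629% of all genes called by edgeR, the 4.45% called by DESeq2 and the 3.51% apart with DKO lower. The call was lost with upper quartile factors, without the 20 most abundant genes, with limma-voom, on the deposited filtered table and under the replicate block. It was present in 2 of the 9 fits with 1 library left out, without WT replicate 2 and without DKO replicate 4. The 18 values ranged from -0.96 to 0.39, with a median of -0.10.

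**Figure D4:**
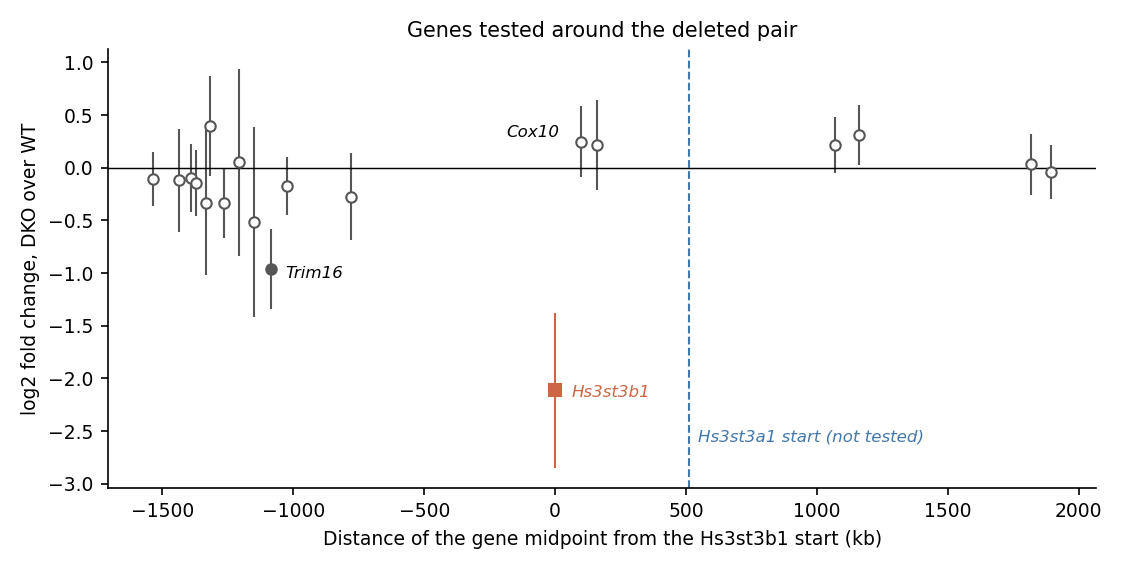
Log2 fold change (DKO over WT, edgeR) of the 18 genes tested around the deleted pair against the distance of each gene's midpoint from the *Hs3st3b1* start in kb, with bars for the 95% interval and filled circles for an adjusted p under 0.05. *Trim16* at -0.96 is the 1 filled circle, and the square is *Hs3st3b1* at -2.11.

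The genes whose pattern was most like that of a member were found by Pearson's r of log2 CPM after the group means were removed, over the 9 libraries and all genes tested. For *Hs3st1* these were *Mdk* (r = 0.949), *Exoc3l* (r = 0.930) and *Dusp7* (r = 0.927). For *Hs3st3b1* they were *Adam8* (r = 0.978), *Sin3a* (r = 0.965) and *Zfp207* (r = 0.962). Each is the top of 13842 values that share libraries and scaling, so they are given as a description.

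**Figure D5:**
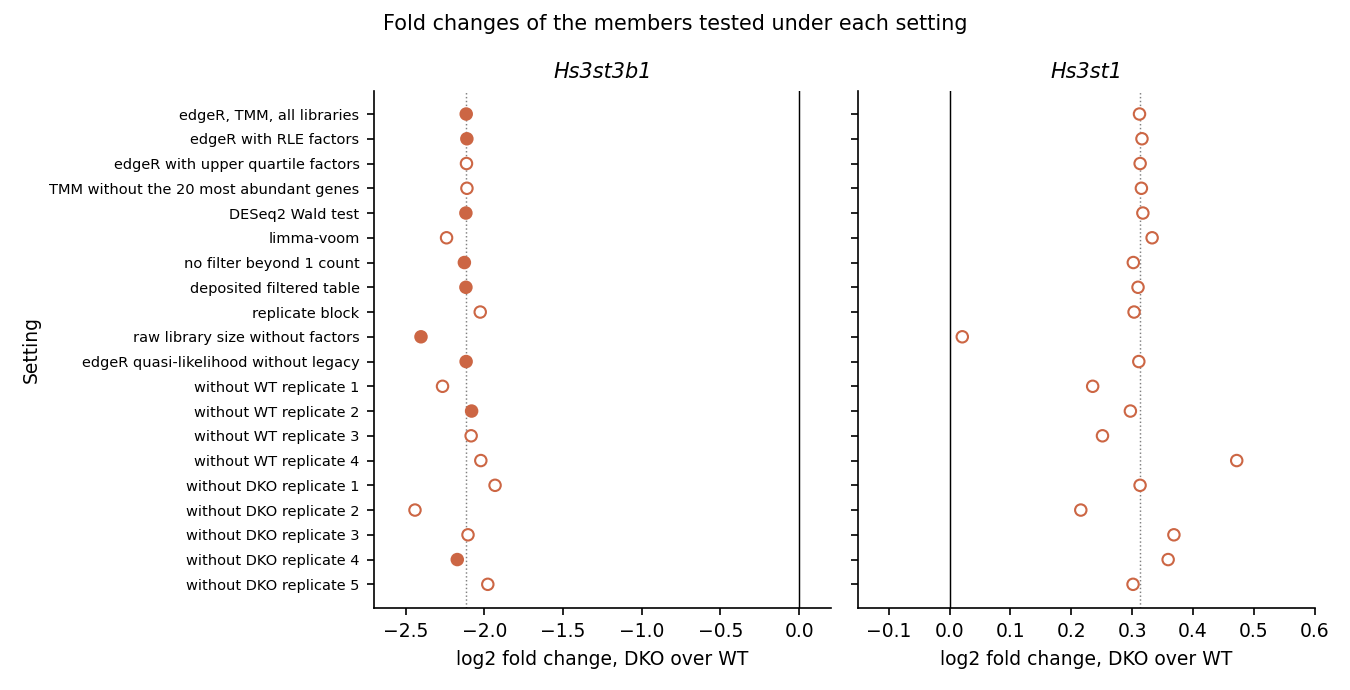
Log2 fold change (DKO over WT) of *Hs3st3b1* and *Hs3st1* under each setting, with filled points for an adjusted p under 0.05 and the dotted line at the value from edgeR with TMM factors and all libraries. *Hs3st3b1* stays between -2.44 and -1.93, and *Hs3st1* between 0.02 and 0.47 with no filled point.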

How the data were processed

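RNA of whole SMGs from 4 WT and 5 DKO male mice was sequenced by the authors from unstranded Nextera XT libraries on a HiSeq2500. Female glands of the study were not analysed here. The submitters' processing notes name STAR 2.5.2a, DESeq2, edgeR and limma and the builds GRCm38, mm10 and GRCh38, with no roles. The counting tool, the annotation and the handling of reads shared by genes are not given in the sources used here. As deposited by the authors, the values used are raw counts on 48733 rows. They also deposited the same counts filtered to 17562 rows, and a signal table of TMM-normalized CPM, whose values all gave back those whole counts (100% within 0.01 counts).

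The raw counts were tested in R 4.3.3 with edgeR 4.0.16 (TMM factors, filterByExpr with a minimum count of 10 and a minimum total of 15, legacy quasi-likelihood fit, genotype as the only term). P-values were adjusted by Benjamini-Hochberg over 13842 rows, with a threshold of 0.05. Standard errors were taken as |log2 fold change|/√F. DESeq2 1.42.0, which the study's methods name, and limma 3.58.1 were alternatives. Raw library sizes and the non-legacy fit were added after seeing the data. The edgeR, DESeq2 and limma steps were tested on simulated data. Summaries were made in Python 3.11.15 with scipy 1.17.1. Coding sequences were aligned with Biopython 1.88. The number of libraries and their depth limit the precision, and intervals of summed counts cover counting error only. P-values set the difference between the genotypes against the spread between these mice.

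The members and gene lists were chosen with earlier results of these data known. Genes named are the members, list genes that passed the test or whose values a sentence needs, transgene rows with more than 3 counts, neighbors within 1.5 Mb, and the 3 genes most like each tested member.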

Additional observations from a re-analysis of the deposited data

Results flagged for a closer look

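The family sum of DKO replicate 2, 10.2 CPM, stood apart from the other 4 DKO libraries, which lay between 6.60 and 7.25 CPM. Its gap to the nearest of them was 0.818 of the range of the group. Both tested members were highest in this library, with 8.19 CPM for *Hs3st1* and 1.85 CPM for *Hs3st3b1* among the DKO glands. It was 1 of 12 groups checked in this way, of which chance flags about 1 in 20. The ratio of the family sums was 0.689 without this library, against 0.753 with it.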

How the results depend on the processing

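The direction of *Hs3st3b1*, lower in DKO, was the same in all 19 alternatives. Its log2 fold change no longer passed the threshold with upper quartile factors (-2.11, adjusted p = 0.0514), TMM factors without the 20 most abundant genes (-2.11, adjusted p = 0.0508), limma-voom (-2.24, adjusted p = 0.0515) and the replicate block (-2.03, adjusted p = 0.0766), and ranged from -2.44 to -1.93 with 1 library left out. *Hs3st1* was not called in any of its 19 alternatives, the replicate block (0.30, adjusted p = 0.507) included. The number of genes called, 87 with edgeR, was 616 with DESeq2, 4 with limma-voom, 5 with upper quartile factors, 5 without the 20 most abundant genes, 347 without the filter, 13 on the deposited filtered table and 358 on raw library sizes. It ranged from 0 to 441 with 1 library left out. Under the replicate block edgeR called 0 genes, with 2024 at an unadjusted p under 0.05. The replicate numbers were not taken to pair the samples, since same-numbered deviations correlated at 0.213, 0.347, 0.102 and 0.0118 and the labels tie the numbers to nothing shared. The replicate block joins libraries by replicate number alone. Sample titles also hold a number for each gland, which was not a term in any fit. WT replicates 1 and 2 correlated best with the DKO library of their own number, and WT replicates 3 and 4 with DKO replicate 5. The 1 call around the deleted pair, *Trim16*, was 0 with upper quartile factors, without the 20 most abundant genes, with limma-voom, on the deposited filtered table and under the replicate block, and 0 to 1 with 1 library left out. The causes were not tested. *Fam20b* changed sign on raw library sizes (-0.026). The HS pathway count was 0 in all 19 alternatives, with 2 to 6 genes at an unadjusted p under 0.05. The family ratio ranged from 0.615 to 0.825, and *Hs3st3b1* relative to the MEC markers from -1.27 to -0.62.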
